A study of Mus musculus with 2 samples.

Results

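The miRNA genes Mir107, Mir103-1, Mir103-2, Mir33, Mir378a and Mir122 are 6 of the 2202 miRNA genes annotated in the mouse, grouped here for their ties to metabolism. They were chosen by gene symbol and by the gene they lie in, with no rule on their levels, although earlier results of these data were known. Mir107, Mir103-1 and Mir103-2 sit in introns of Pank1, Pank3 and Pank2, the genes of pantothenate kinases. Mir33 sits in an intron of Srebf2 and Mir378a in an intron of Ppargc1b, and Mir122 was included as the miRNA of the liver. RNA of under 30 nt from the left cerebral cortex was sequenced in 1 group of 2 libraries, called replicate 1 and replicate 2. The tissue came from B6CASTF1/J mice, a first-generation cross of C57BL/6J and CAST/EiJ, aged 18 to 20 months, with no treatment, transgene or deletion named in the labels. The labels give both libraries 1 donor record and contradict each other on sex, so separate animals are not certain, part of the difference between libraries may be technical, and sex was not used.

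A miRNA is cut from a hairpin as a short arm of about the length of these reads, and it represses mRNAs that pair with its seed, the bases near its 5′ end. Pantothenate kinases start the synthesis of coenzyme A, the carrier of acyl groups in fat and energy metabolism, and miR-103 and miR-107 are known in mouse liver and fat for restraining insulin sensitivity. Srebf2 encodes the transcription factor SREBP-2, which turns on cholesterol synthesis, and miR-33 from its intron represses the cholesterol exporter Abca1. Ppargc1b encodes the coactivator PGC-1 beta of mitochondrial genes, and miR-378a is known in mouse for effects on fat oxidation and body weight. miR-122 is the dominant miRNA of hepatocytes and raises their cholesterol synthesis.

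The mature arms of the Pank loci and of Mir33 are shown because they decide which reads can be told apart. RefSeq (build GRCm38.p6) held 4 of the 6 loci among its 1005 hairpins, and each arm is written 5′ to 3′ with its seed, bases 2 to 8, in capitals.
miR-103-3p, of both Mir103-1 and Mir103-2: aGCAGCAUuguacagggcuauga
miR-107-3p: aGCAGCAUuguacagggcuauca
miR-103-1-5p: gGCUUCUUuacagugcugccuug
miR-103-2-5p: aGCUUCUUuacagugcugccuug
miR-107-5p: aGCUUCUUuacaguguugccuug
miR-33-5p: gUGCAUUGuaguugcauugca
miR-33-3p: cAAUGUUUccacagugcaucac
Counted from 1 at the 5′ end, miR-103-3p and miR-107-3p differ by G22C alone, with the miR-103 base first, and their first 21 bases are identical. The arms miR-103-1-5p and miR-103-2-5p differ by G1A, and miR-103-2-5p and miR-107-5p differ by C16U. The 3′ arms of the Pank loci share 1 seed and their 5′ arms another, and among the 1679 mature names of the table none from outside these loci has the seed of any arm shown. Bases 1 to 7 of miR-103-3p and miR-107-3p, which are AGCAGCA, equal the seed of 10 other mature miRNAs, among them miR-15a-5p, miR-16-5p and miR-195a-5p.

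The hairpins of the 3 Pank loci, with both mature arms in capitals, show where the copies are alike and where they are not. Mir103-1 lies at chr11:35782396-35782481 (plus strand), Mir103-2 at chr2:131288052-131288137 (plus strand) and Mir107 at chr19:34820687-34820773 (minus strand), in mm10 with the annotation GENCODE M21.
Mir103-1: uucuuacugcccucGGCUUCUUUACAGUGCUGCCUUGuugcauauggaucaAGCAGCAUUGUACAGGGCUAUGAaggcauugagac
Mir103-2: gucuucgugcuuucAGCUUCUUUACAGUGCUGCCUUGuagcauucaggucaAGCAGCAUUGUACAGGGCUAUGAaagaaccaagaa
Mir107: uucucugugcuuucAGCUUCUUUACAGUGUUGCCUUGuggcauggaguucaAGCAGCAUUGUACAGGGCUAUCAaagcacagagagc
The whole arm miR-103-3p occurs in both Mir103 hairpins, so a read of it has 2 annotated places. The whole arm miR-107-3p occurs in no other annotated transcript, also when 1 base is taken from its 3′ end. When 2 bases are taken away, it occurs in 2 other genes, both Mir103 copies. Of the words of 18 bases in each hairpin, 24.6% for Mir103-1, 31.9% for Mir103-2 and 24.3% for Mir107 occur in transcripts of other genes. The share was 0% for Mir33, 18.4% for Mir378a and 2.04% for Mir122, leaving out the gene each hairpin lies in. The Mir33 hairpin at chr15:82198122-82198190 (plus strand) is therefore free of such words, and that of Mir378a shares its words with 5 genes, among them Mir378b and Mir378c.

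**Figure D1:**
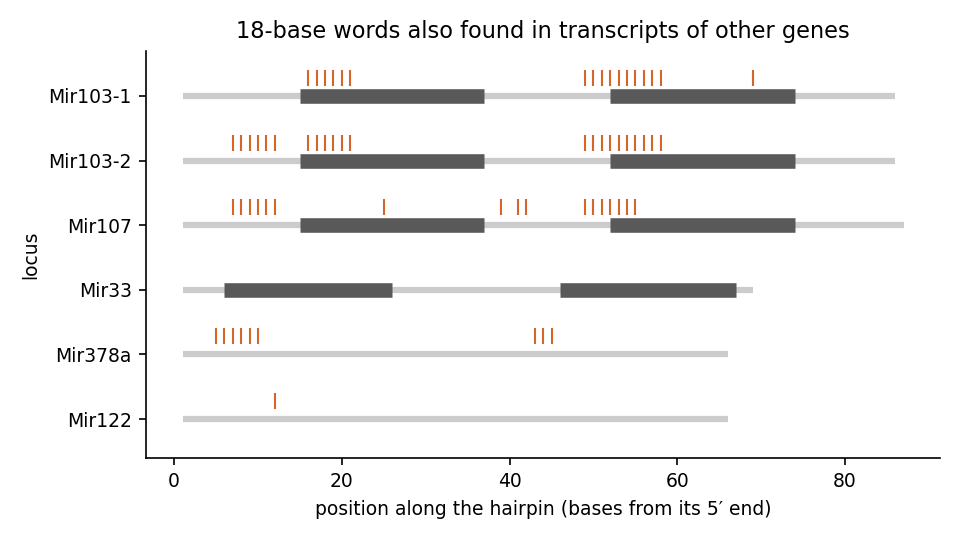
Position along each annotated hairpin in bases (x axis) for the 6 loci (y axis). Light bars are the hairpins, dark bars the mature arms of the 4 loci with a RefSeq entry, and orange ticks the starts of words of 18 bases that also occur in transcripts of other genes; ticks lie both on and outside the arms of the Pank loci, and Mir33 has none.

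Reads that fit several places are not counted under any gene in these tables but on a line of their own. That line held 2863078 reads in replicate 1 and 5481355 in replicate 2, against 2381663 and 4436398 reads on the annotated strand of miRNA genes. The levels of Mir103-1 and Mir103-2 below therefore leave out any read that was set aside in this way, and how many of the multimapping reads are miR-103 was not tested. Levels are given in CPM, the reads of a locus scaled so that all sense reads of miRNA genes in a library sum to 1000000. A read is of about the length of the mature arm, so CPM were not divided by hairpin length except where stated. Intervals are 95% exact binomial intervals and cover counting error only, since PCR copies are not independent molecules. In bulk tissue, fewer cells of a type and less RNA per cell cannot be told apart. A list of 15 neuronal loci summed to 103664 CPM in replicate 1 and 84183 CPM in replicate 2, of which Mir132 held 69646 and 43349 CPM. The median mean level of the list was 132 CPM, with 6 of its loci above Mir107 and 6 below Mir33. Its 3 loci of miR-124, the most typical miRNA of neurons, had at most 4 reads in a library. The miR-124 loci share a mature arm and so have the limit of the Mir103 copies. Other loci of the list named as copies of the same miRNA, such as Mir128-1 and Mir128-2, may have that limit too.

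By counted reads, the 6 loci fell into 2 abundant ones, Mir378a and Mir107, and 4 scarce ones. Together they held 17271 reads in replicate 1, which was 0.725% of its sense reads (interval 0.714 to 0.736), and 26306 reads in replicate 2, which was 0.593% (0.5858 to 0.6001). Mir378a and Mir107 made up 98.6% and 98.1% of these reads in the 2 libraries. Each library held 10 or more reads of 5 of the loci, all but Mir103-1. The counts of Mir103-1 and Mir103-2 leave out any read set aside as multimapping.

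**Figure D2:**
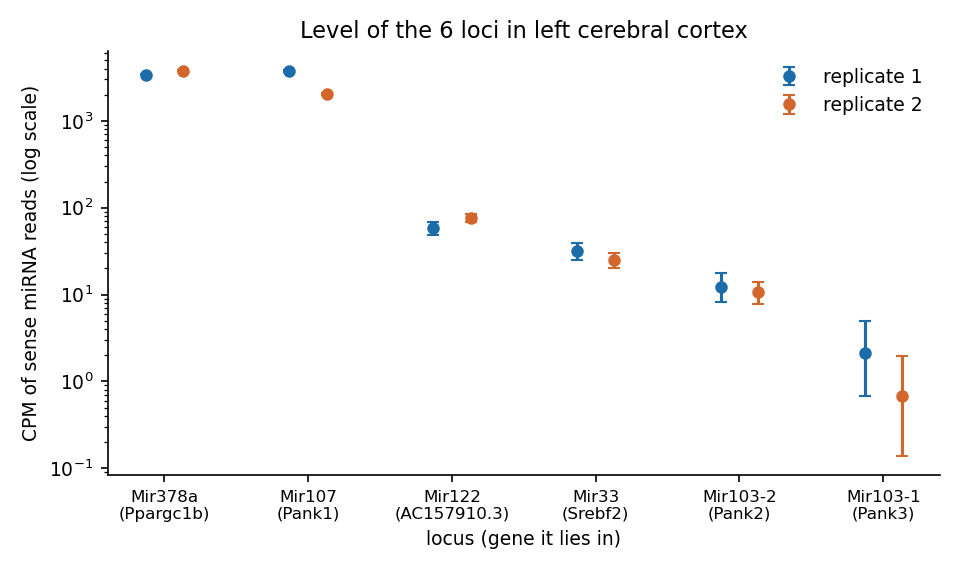
Level of each locus in CPM (y axis, log scale) by locus and the gene it lies in (x axis). Blue points are replicate 1, orange points replicate 2, and bars are 95% exact binomial intervals; Mir378a and Mir107 lie at or above 2024 CPM in both libraries and the other 4 loci at or below 76.0 CPM.

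Mir107, in intron 5 of 6 of Pank1, was the abundant locus of the pantothenate kinase group. It had 8877 reads in replicate 1 (3727 CPM, interval 3650 to 3805) and 8981 reads in replicate 2 (2024 CPM, 1983 to 2067). The mean was 2876 ± 1204 CPM (SD, n = 2), which ranked 53rd among the 728 loci with a read. Replicate 1 was the higher library, and the intervals of the 2 libraries did not overlap.

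Mir103-2, in intron 7 of 8 of Pank2, had 29 reads in replicate 1 and 47 in replicate 2. These were 12.2 CPM (interval 8.15 to 17.5) and 10.6 CPM (7.78 to 14.1), a mean of 11.4 ± 1.12 CPM (SD, n = 2). Mir103-1, in intron 5 of 6 of Pank3, had 5 reads and 3 reads, or 2.10 CPM (0.682 to 4.90) and 0.676 CPM (0.139 to 1.98). Its mean was 1.39 ± 1.01 CPM. Its 3 reads in replicate 2 equal the level of 0.676 CPM that a count of 0 would allow there.

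Of all reads counted under the 3 Pank loci, Mir107 held 99.6% in replicate 1 (interval 99.5 to 99.7) and 99.4% in replicate 2 (99.3 to 99.6). Both Mir103 copies together held 0.382% (0.264 to 0.533) and 0.554% (0.411 to 0.729). This split concerns reads with 1 place in the genome. As the sequences above show, the 3′ arm of Mir107 carries a base of its own near its end, while the same arm of the Mir103 copies carries none that separates them. The split does not measure how much miR-103 and miR-107 the cortex holds.

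Mir33, in intron 17 of 20 of Srebf2, had 75 reads in replicate 1 and 110 in replicate 2. That gave 31.5 CPM (interval 24.8 to 39.5) and 24.8 CPM (20.4 to 29.9), a mean of 28.1 ± 4.73 CPM (SD, n = 2). The intervals overlapped, and the locus ranked 253rd. Its hairpin shares no word of 18 bases with another annotated gene, and 2 of its 54 words of 16 bases occur elsewhere.

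Mir378a, in intron 1 of 12 of Ppargc1b, was the most abundant of the 6 by its mean. It had 8146 reads in replicate 1 (3420 CPM, interval 3347 to 3495) and 16828 reads in replicate 2 (3793 CPM, 3736 to 3851). The mean was 3607 ± 264 CPM (SD, n = 2), at rank 47. It lies at chromosome 18, 61397835 to 61397900, minus strand, inside the span of a predicted miRNA gene on the plus strand, Gm25301 (61397813 to 61397925). Gm25301 had 0 reads on its own strand in both libraries, and its opposite strand held the same 8146 and 16828 reads. In the authors' count of both strands together, Mir378a stood at 0 in both libraries. The related loci had few counted reads, with 6 and 9 for Mir378d, 1 and 1 for Mir378c and 0 in both libraries for Mir378b. For counted reads, a count of 0 allows up to 1.26 CPM in replicate 1 and 0.676 CPM in replicate 2. Any read of these loci that was set aside as multimapping is left out.

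Mir122 is part of an exon of AC157910.3, a noncoding gene, on the plus strand of chromosome 18 from 65248861 to 65248926. It had 139 reads in replicate 1 (58.4 CPM, interval 49.1 to 68.9) and 337 reads in replicate 2 (76.0 CPM, 68.1 to 84.5). The mean was 67.2 ± 12.4 CPM (SD, n = 2), at rank 223, which was above Mir33 and both Mir103 copies in each library. Other miRNAs of the liver list were lower, with means of 24.2 ± 4.60 CPM for Mir194-2 (50 and 122 reads) and 11.3 ± 1.80 CPM for Mir192 (24 and 56 reads; SD, n = 2). Mir802 had 1 and 6 reads, and Mir194-1 had 1 and 2. Mir194-1 and Mir194-2 are copies named for 1 miRNA, so they have the limit of the Mir103 copies. Their counts leave out any read set aside as multimapping and do not place miR-194 as a whole below Mir122. Of the erythroid list, 3 of 5 symbols matched a gene, and these summed to 97.8 CPM in replicate 1 and 67.4 CPM in replicate 2. Whether blood or tissue outside the cortex takes part in the Mir122 reads was not tested.

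**Figure D3:**
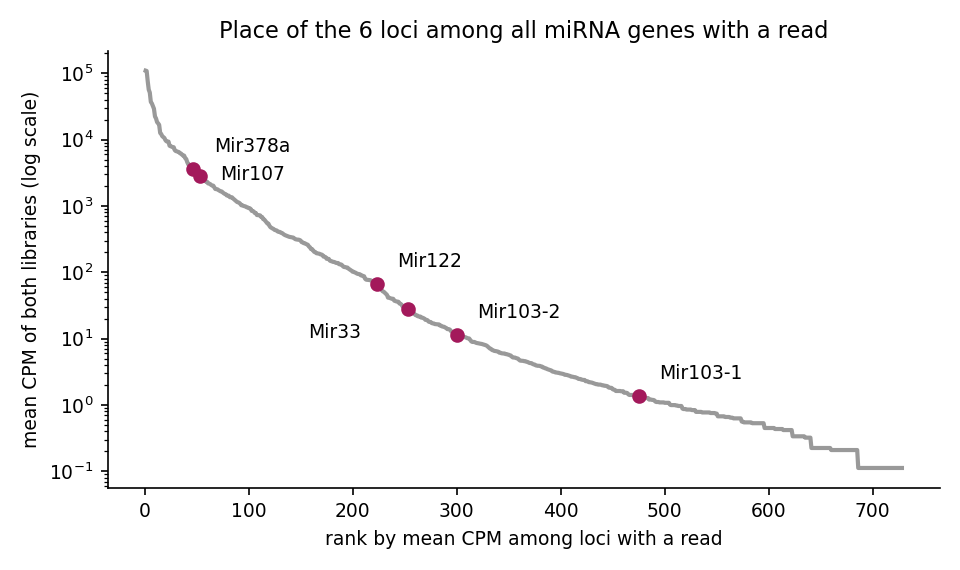
Mean CPM of both libraries (y axis, log scale) against rank (x axis) for the 728 miRNA genes with a read, drawn as a grey curve. The 6 loci are marked, with Mir378a at rank 47, Mir107 at 53, Mir122 at 223, Mir33 at 253, Mir103-2 at 300 and Mir103-1 at 475.

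In order of mean level the loci ran Mir378a, Mir107, Mir122, Mir33, Mir103-2 and Mir103-1. The first neighbours did not differ beyond their spread. Mir378a over Mir107 was -0.12 in replicate 1 and 0.91 in replicate 2, as log2 of the ratio of CPM + 1, so their order changed between the libraries. Divided by the length of the hairpin, 66 bases for Mir378a and 87 for Mir107, the log2 ratio was 0.27 and 1.30, with Mir378a higher in both. This division was chosen after the data were seen. Mir107 over Mir122 was 5.97 and 4.72, the widest step, or 63.9-fold and 26.6-fold as a plain ratio of CPM. Mir122 over Mir33 was 0.87 and 1.58, Mir33 over Mir103-2 was 1.30 and 1.15, and Mir103-2 over Mir103-1 was 2.09 and 2.79. For these 4 steps the lower value of the upper locus lay above the higher value of the next one.

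The loci in protein-coding introns can be placed among their kind, although intronic position was part of the choice. Of 733 annotated miRNA genes in introns of protein-coding genes on the same strand, 330 had a read. Among these, Mir378a ranked 16th, Mir107 20th, Mir33 93rd, Mir103-2 111th and Mir103-1 204th. Hence 93.9% of such loci with a read lay below Mir107 and 71.8% below Mir33. The ranks of Mir103-1 and Mir103-2 leave out any read set aside as multimapping. No host mRNA was measured in these libraries.

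The libraries were compared for each locus to see whether its level held between them. The comparison has 1 library on each side and no replicate check, and its p-values allow for counting noise alone, so they compare these libraries and not conditions. Each locus was tested by a two-sided exact binomial test, and the p-values were adjusted by the method of Benjamini and Hochberg over the 472 genes whose reads came to 10 or more in both libraries together. Of the 6 loci 5 could be tested and 3 were called, 1 higher in replicate 1 and 2 higher in replicate 2. Of all tested genes 52.1% were called, 24.6% as higher in replicate 1 and 27.5% as higher in replicate 2, so the calls among these loci are near the background. A difference of at least 1.5-fold was reached by 1 of the 5 loci, Mir107, and by 41.9% of all tested genes.

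Mir107 was higher in replicate 1 by a log2 ratio of 0.91 (95% exact interval 0.87 to 0.95), a 1.88-fold difference, and the adjusted p of the exact binomial test was too small to be represented. Its log2 ratio was larger in size than that of 76.1% of the tested genes. Mir378a was higher in replicate 2, with a log2 ratio of -0.12 (-0.16 to -0.08) and an adjusted p of 1.2e-09 in the exact binomial test, a small difference made visible by its many reads. With the size factors of DESeq2, this log2 ratio shrank to -0.05 (adjusted p of the exact binomial test 0.034). Mir122 was higher in replicate 2, with a log2 ratio of -0.35 (-0.65 to -0.06) and an adjusted p of 0.032 in the exact binomial test. With the size factors of DESeq2 this call was lost (adjusted p of the exact binomial test 0.106).

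Mir33 and Mir103-2 were not called. Mir33 had a log2 ratio of 0.37 (interval -0.07 to 0.81, exact binomial adjusted p = 0.154) and Mir103-2 one of 0.23 (-0.49 to 0.93, exact binomial adjusted p = 0.668). Mir103-1, with 8 reads in all, was not tested, and its log2 ratio of 1.66 had an interval of -0.70 to 4.35. The intervals of Mir33 and Mir103-2 leave room for a difference of the size seen at Mir122. The median size of the log2 ratio over all tested genes was 0.47, above that of Mir103-2, Mir33, Mir378a and Mir122 and below that of Mir107.

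**Figure D4:**
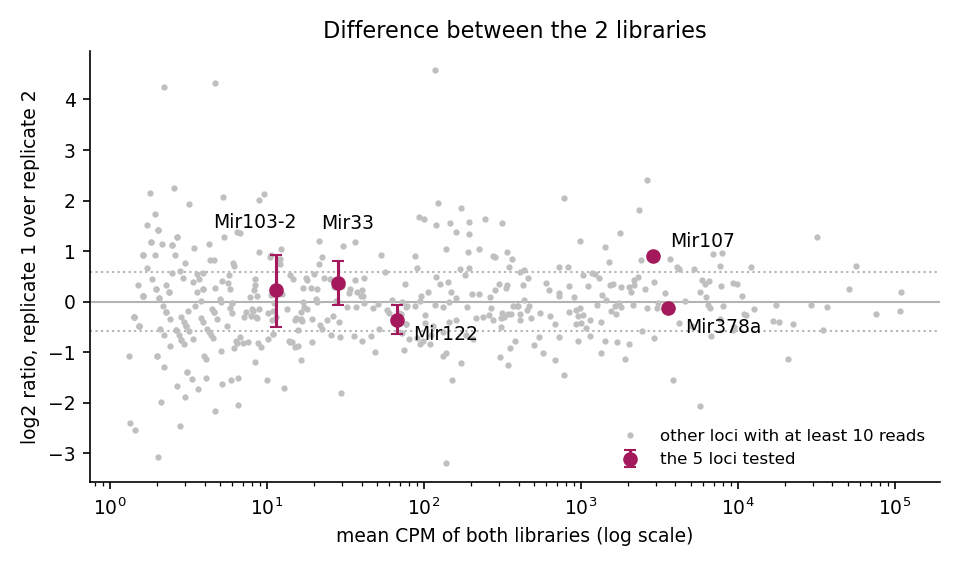
Log2 ratio of replicate 1 over replicate 2 (y axis) against mean CPM (x axis, log scale) for the loci with at least 10 reads in total; 1 locus without reads in 1 library is not drawn. Grey dots are the other loci, purple points the 5 tested loci with 95% exact intervals, and dotted lines mark 1.5-fold, which only Mir107 of the 5 exceeds.

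The tested liver loci lay on the same side as Mir122. The log2 ratio of Mir194-2 was -0.36 and that of Mir192 was -0.30, and neither was called (exact binomial adjusted p = 0.229 and 0.61). Mir451a, the main miRNA of red blood cells, lay on the other side, with 119 reads in replicate 1 and 100 in replicate 2 (mean 36.3 ± 19.4 CPM, SD, n = 2), a log2 ratio of 1.18 (exact binomial adjusted p = 7.1e-09). Mir144 stood at 0.27 and Mir486 at 0.02, and neither was called. The median log2 ratio over all tested genes was -0.07. What these directions say of where the Mir122 reads come from was not tested.

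By mean level, the miRNAs that share the bases AGCAGCA with miR-103 and miR-107 ranged from well below Mir107 to above it. They come from 11 loci in the RefSeq table, of which 7 had reads. Mir195a, of the family of miR-15 and miR-16, which restrains the cell cycle, had a level of 1939 CPM in replicate 1 and 5763 CPM in replicate 2. It lay below Mir107 in replicate 1 and above it in replicate 2, and no other of these loci lay above Mir107 in either library. The log2 ratio of Mir195a, -1.54, was opposite in sign to that of Mir107. Mir497, its neighbour in the genome, stood at 873 and 1280 CPM, Mir15a at 852 and 1051 CPM, and Mir322 at 471 and 383 CPM. Mir15b stood at 238 and 311 CPM, Mir16-1 at 211 and 194 CPM and Mir16-2 at 74.3 and 80.7 CPM. The list of miR-15/16 relatives, which also holds Mir503, had a median of 239 CPM over 10 of 11 symbols that matched. Of its 8 tested loci 5 were called, 1 higher in replicate 1 and 4 in replicate 2, against 52.1% of all genes. Copies of miR-16 share their mature arm, so Mir16-1 and Mir16-2 have the same limit as the Mir103 copies.

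Other miRNAs reported to act on lipid and cholesterol genes were taken from a list of 19 loci. The median mean level was 47.7 CPM for the 6 loci, against 224 CPM for this list and 4.60 CPM for all loci with a read. All 19 had a read, and 18 reached 10 reads in each library. Mir128-1, a miRNA of neurons that also represses Abca1 and the LDL receptor, led with 14354 and 19064 CPM. Mir34a, a target of p53, had 3048 and 3176 CPM, and Mir128-2 had 2869 and 3185 CPM. Mir27b, known in liver for repressing lipid genes, had 2490 and 1889 CPM. By their means Mir128-1, Mir34a and Mir128-2 lay above Mir107. Below Mir33 lay 4, namely Mir144, Mir223, Mir758 and Mir96. Mir758 and Mir144, like Mir33 reported to repress Abca1, had means of 6.15 ± 2.00 and 19.0 ± 2.28 CPM (SD, n = 2). Of the 18 tested loci 11 were called, 7 higher in replicate 1 and 4 in replicate 2, beside 52.1% of all genes. Mir144 is also on the erythroid list, and Mir128-1 and Mir128-2 are also on the neuron list. Mir128-1 and Mir128-2 are named as copies of the same miRNA, as are Mir26a-1 and Mir26a-2, and Mir30c-1 and Mir30c-2. Their levels, and so the list median, leave out any read set aside as multimapping.

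**Figure D5:**
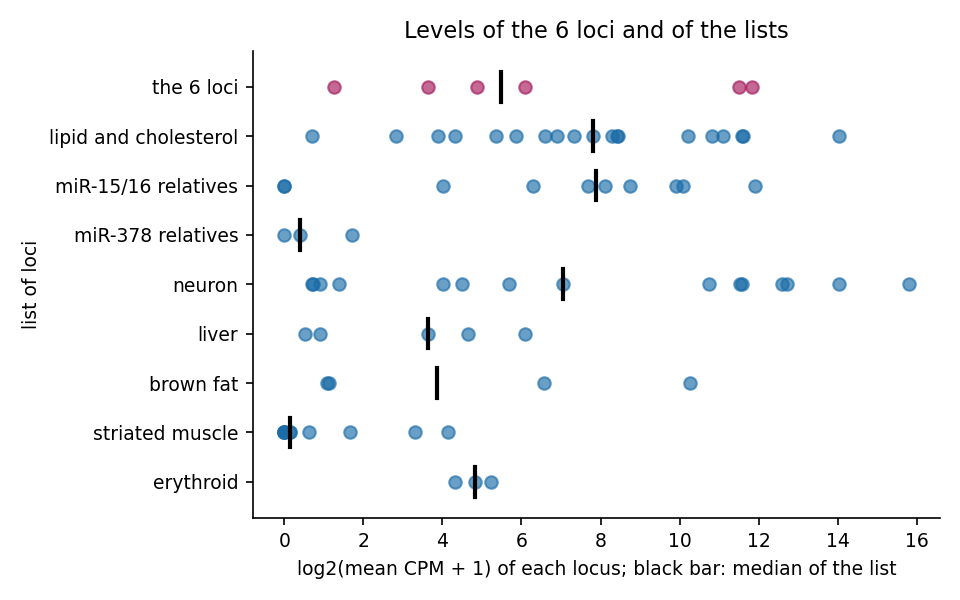
Log2(mean CPM + 1) of each locus (x axis) by list (y axis), with the 6 loci in purple at the top and the black bar at each list's median. The median of the 6 loci was 5.48, that of the lipid and cholesterol list 7.81 and that of the miR-15/16 relatives 7.89.

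Tissues in which Mir378a is best known were represented by further lists. Over 4 loci of brown fat the sum was 1318 ± 304 CPM (SD, n = 2). Most of it was Mir455, with 1437 and 1005 CPM, followed by Mir193b at 94.5 and 94.9 CPM. Over 10 loci of striated muscle it was 28.4 ± 1.34 CPM (SD, n = 2), and 6 of them had a read. Most of this sum was Mir206, with 14.3 and 18.9 CPM, and Mir499, with 11.8 and 6.09 CPM. Mir133a-1, Mir133a-2, Mir133b and Mir1a-1 had no read. The copies of miR-1a, miR-133a and miR-365 also share mature arms, so these sums leave out any of their reads that were set aside as multimapping and do not measure those miRNAs in full.

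For each locus the other miRNA genes of nearest level were found from the summed difference in log2(CPM + 1) over the 2 libraries, which describes levels and says nothing of function. Nearest to Mir107 were Mir338, with 3079 and 1778 CPM (summed difference 0.46), and Mirlet7f-2 (0.52). Nearest to Mir378a were Mir30e (0.29) and Mir541 (0.40). Nearest to Mir33 were Mir1264 (0.12) and Mir449a (0.21), and nearest to Mir122 were Mir345 (0.13) and Mir24-2 (0.19). Nearest to Mir103-2 were Mir7031 (0.20) and Mir5113 (0.23). Nearest to Mir103-1 were Mir7055, with the same 5 and 3 reads, and Mir6996 (0.21).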

How the data were processed

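For 2 libraries of 1 group, the authors deposited raw read counts per miRNA gene without normalization. The notes that came with the tables name mm10 and GENCODE M21. The aligner is not given in the sources used, nor is the trimming. Each table opens with 4 lines of reads under no gene (unmapped reads 30.8% in replicate 1 and 14.6% in replicate 2, multimapping 35.6% and 44.8%), which entered neither library sizes nor tests. All reads numbered 8041772 and 12239366.

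Counts on the gene's strand were scaled to CPM. TMM factors from edgeR 4.0.16 over genes with 10 or more reads in both libraries together (R 4.3.3) set effective library sizes for an exact binomial test, with a threshold of 0.05, because 1 group allows no quasi-likelihood test. The test was tried on simulated counts that held counting noise alone, so this trial does not show how it behaves where libraries differ by more than that. DESeq2 1.42.0 gave alternative size factors, and scipy 1.17.1 was used in Python 3.11.15. Sequences came from RefSeq, and words were searched in GENCODE M21 transcripts on both strands; no genome sequence was searched. Alternatives covered scalings, read minimums, pseudocounts, both strands and single libraries.

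The members, lists and tests were chosen with earlier results of these data known. Named are the 6 loci, the 2 loci nearest to each in level, up to 4 loci of each list and other miRNA genes in the same hosts. Further list loci were named after their values were seen.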

Additional observations from a re-analysis of the deposited data

How the results depend on the processing

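Scaled to all reads of the library, in place of sense miRNA reads, the mean levels were 1194 for Mir378a, 919 for Mir107, 22.4 for Mir122, 9.16 for Mir33 and 3.72 for Mir103-2. With both strands together Mir378a stood at 0 CPM, its log2 ratio over Mir107 was -11.55, and the median log2 level of the miR-15/16 relatives was 7.11. Mir378a and Mir497, of those relatives, each overlap a miRNA gene on the other strand, and both had 0 reads in that count. Its line of ambiguous reads held 197474 in replicate 1 and 384735 in replicate 2. Whether the reads of Mir378a and Mir497 are among them was not tested. The replicate ratio of Mir122 was -0.28 and not called with DESeq2 size factors. Over its other alternatives its adjusted p in the exact binomial test ran from 0.019 to 0.047. Division by hairpin length, chosen after the data were seen, gave 1.55 for Mir33 over Mir103-2. A pseudocount of 0.1 CPM gave 3.13 for Mir103-2 over Mir103-1 and -1.24 for the median of the miR-378 relatives. Of 111 alternative values of 23 results, the other 99 were counted as unchanged. They stayed on their side of the threshold, within the spread between libraries or, for numbers of called genes, within 1.5-fold. Among them were the calls with DESeq2 size factors, 128 higher in replicate 1 and 113 in replicate 2, against 116 and 130. Also counted as unchanged, the log2 ratio of Mir378a over Mir107 turned to -0.12 when replicate 2 was left out, against a mean of 0.39. For levels and for ratios between loci, leaving out 1 library could not have counted as a move. With 2 libraries each value lies within 1 SD of their mean, so these values say nothing of stability. No paired analysis was possible because there is 1 group. Depth limits Mir103-1, at 5 and 3 reads, most.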

Other observations

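Over all annotated loci, those in introns of protein-coding genes summed to 432826 ± 14478 CPM (SD, n = 2), and those in exons of protein-coding genes to 76965 ± 15260 CPM. Loci in noncoding genes summed to 308205 ± 36623 CPM, and loci in no gene on their strand to 182003 ± 6885 CPM. Mir378a and Mir107 are 2 of the 142 intronic loci with at least 10 reads in each library.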
